A study of Mus musculus with 19 samples.

Results

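Expression of the kinases and ubiquitin ligase subunits that process Gli proteins was examined in 19 mouse medulloblastomas. The genes were Gsk3a, Gsk3b, Prkaca, Prkacb, Prkar1a, Csnk1a1, Csnk1e, Btrc, Spop and Cul3. Every probe set annotated to 1 of these 10 symbols was taken, which gave 36 probe sets of the 45037 on the array that are not controls. All 36 passed the filter on low signals that left 31143 probe sets of 13454 genes for testing.

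Each array was hybridised with RNA of 1 tumour. Dissociated Ptch+/-p53-/- tumour cells had been placed under the skin of nude mice, where they grew. This genotype has a disrupted copy of Ptch, the receptor that restrains Hedgehog signalling, and lacks p53. The vehicle tumours share it with the treated ones. Whether the tumours kept the other copy of Ptch was not examined. There were 3 tumours from mice given vehicle, which the labels call sensitive, 8 from mice given NVP-LDE225 at 40 mg/kg and 8 at 160 mg/kg. NVP-LDE225 is an antagonist of Smoothened, the membrane protein that starts the Hedgehog signal. The labels call all treated tumours resistant, so treatment and resistance cannot be told apart. The source names of tumours 6 and 7 at 160 mg/kg call them resistant, and the remaining 14 carry the word treated instead; every tumour stayed in its dose group. The labels do not say whether tumours came from separate mice or from 1 donor tumour, so the spread behind each p-value is that among these tumours and may be technical. In tumour tissue a change in the mix of cells and a change of RNA per cell cannot be told apart.

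Gli2 and Gli3 are made as full-length proteins that the cell can cut to a repressor or destroy. In the absence of a Hedgehog signal, protein kinase A marks them first, and glycogen synthase kinase 3 and casein kinase 1 add further phosphates. The ligase subunit that Btrc encodes, beta-TrCP, binds the marked protein and sends it to the proteasome. A second ligase, in which Spop binds the substrate and Cul3 forms the scaffold, degrades full-length Gli protein. These steps act on protein, and the arrays measured RNA.

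Median signals per array ran from 32.7 to 49.7, the highest in vehicle tumour 3, and precision is limited by how many arrays each group has. Vehicle tumour 3 and 160 mg/kg tumour 2 were the arrays least like the others, with mean correlations to the others of 0.915 and 0.916. For Gapdh, 3'/5' signal ratios spanned 0.800 to 0.827 on vehicle arrays, 0.764 to 0.813 at the lower dose and 0.733 to 0.828 at the higher. Actb ratios spanned 1.57 to 1.76, 1.37 to 1.77 and 1.34 to 1.72 in the same order. The ranges overlapped, but at each dose they reached below the lowest vehicle ratio. The part of RNA quality in the differences from vehicle was not tested. Signals are on the linear MAS5 scale. Changes are differences of log2(signal + 2.5) with limma's standard error (SE), and a probe set was called at a limma adjusted p under 0.05 over all 31143 probe sets. A gene was represented by its brightest probe set, the one with the highest mean log2 value. Signals of different probe sets are not compared with each other.

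The tumours that had received the drug were first compared with vehicle tumours, over the mean of both doses. Gsk3b, the beta form of glycogen synthase kinase 3, rose 1.66-fold. Prkar1a, the regulatory subunit that holds protein kinase A inactive until cAMP binds, rose 1.33-fold. The other genes did not pass the test by their brightest probe set. In Prkacb, a catalytic subunit of protein kinase A, and in Cul3, 1 dimmer probe set each passed. By the brightest probe set 2 of the 10 genes rose and 0 fell, where 2.84% of all genes rose and 2.45% fell. By probe set 5 of 36 rose (13.9%) and 0 fell, where 2.64% of all probe sets rose and 1.83% fell. The median log2 change of the 36 probe sets was 0.16 and that of all probe sets tested was -0.06. These counts rest on few vehicle arrays: without vehicle tumour 3 they were 0 genes and 0 probe sets, without vehicle tumour 1 they were 1 and 2, and without vehicle tumour 2 they were 2 and 4. Over all probe sets, calls fell from 1392 to 243, 425 and 472 in the same fits.

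**Figure D1:**
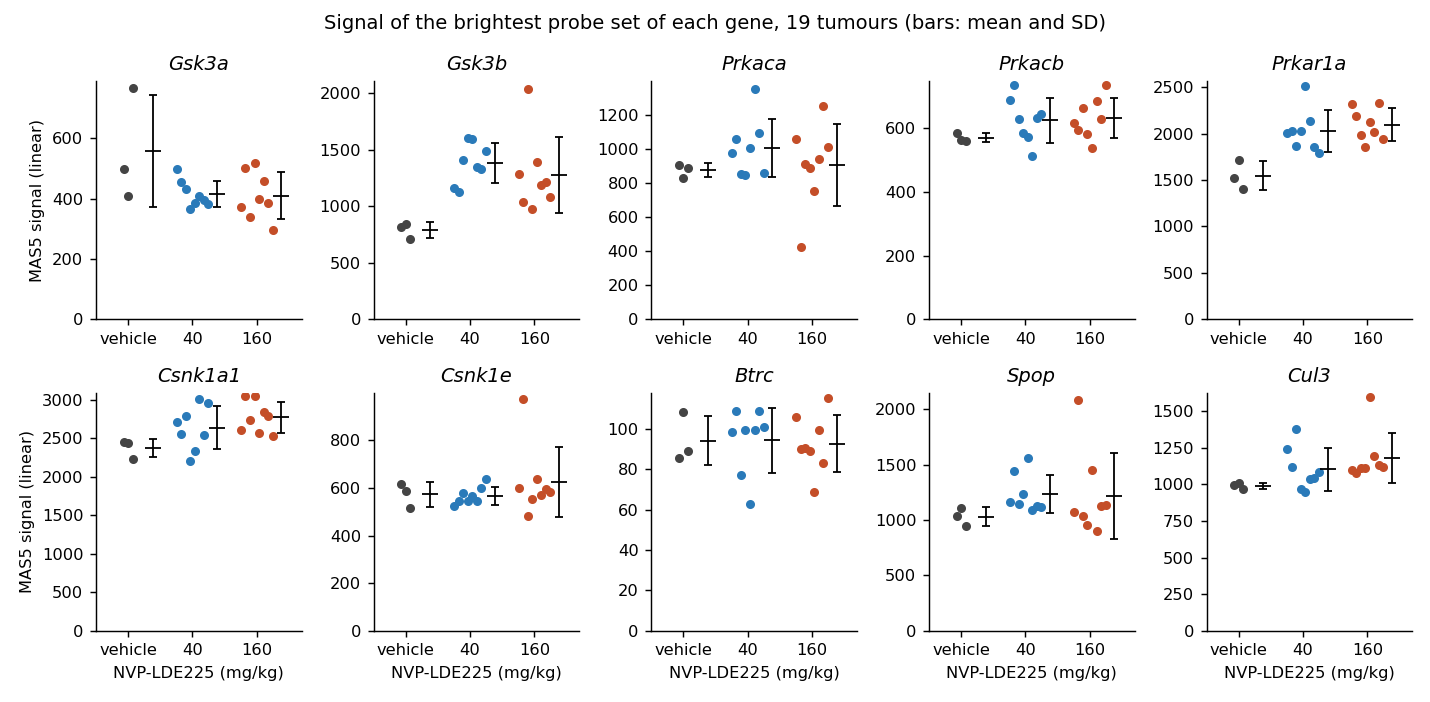
MAS5 signal on a linear scale (y axis) of the brightest probe set of each of the 10 genes in the 3 vehicle tumours and in the 8 tumours at each dose of NVP-LDE225 in mg/kg (x axis); points are tumours, and bars give the mean and SD of the group. All treated tumours lie above all vehicle tumours for Gsk3b and Prkar1a, while for the other 8 genes the 16 treated tumours overlap with vehicle. At 160 mg/kg alone, 8 of 8 tumours also lie above vehicle for Csnk1a1 and for Cul3.

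The promoter of Gsk3b and that of its paralogue Gsk3a are shown because the pair differed in the tumours, and Prkar1a sites because the gene rose. The letters are the 250 bases before the annotated start in RefSeq on GRCm38.p6, 5′ to 3′ on the strand of the gene, for the GSK3 genes. Prkar1a has several annotated starts close together, so 30 bases around each match are given, with the match in capitals.
Gsk3b, chr16:38088751-38089000, plus strand: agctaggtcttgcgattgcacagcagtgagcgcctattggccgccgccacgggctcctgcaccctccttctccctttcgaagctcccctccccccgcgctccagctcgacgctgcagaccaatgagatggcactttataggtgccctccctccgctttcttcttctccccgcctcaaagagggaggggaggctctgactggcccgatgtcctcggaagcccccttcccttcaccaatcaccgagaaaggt
Gsk3a, chr7:25237852-25238101, minus strand: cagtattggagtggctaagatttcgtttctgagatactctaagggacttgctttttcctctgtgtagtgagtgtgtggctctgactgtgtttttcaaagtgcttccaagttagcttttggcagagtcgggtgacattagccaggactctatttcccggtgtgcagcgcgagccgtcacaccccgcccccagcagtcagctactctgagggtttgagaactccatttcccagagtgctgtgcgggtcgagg
Prkar1a, chr11:109650889-109650918, plus strand: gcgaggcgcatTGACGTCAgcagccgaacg
Prkar1a, chr11:109649317-109649346, plus strand: tttatctgcagTGGGTGGTtttgttttttt
The Gsk3b window held 62.0% G and C and 15 CpG dinucleotides, and the Gsk3a window 52.0% and 9. The median over 32851 windows of this length was 52.4% and 6. Both strands of 19 windows of the 8 genes in the table were searched for the Gli consensus GACCACCCA, which none held and 0.225% of all windows hold. The shorter ACCACCCA lies inside the first motif, is found in 1.28% of all windows and matched 1 of the 19, in Prkar1a, on the reverse strand as TGGGTGGT. The cAMP response element TGACGTCA is in 1.55% of all windows and was also found in 1 of the 19, in Prkar1a. A match describes letters and shows no binding. Btrc and Csnk1a1 were not matched in the table.

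Among the kinases, Gsk3b differed most from vehicle by the test. GSK3 adds phosphates to sites that another kinase has already prepared, and it acts in the same way on beta-catenin. The brightest Gsk3b probe set, 1454958_at, had signals of 815.3, 840.7 and 707.6 in the vehicle tumours. At 40 mg/kg it ran from 1129.4 through a median of 1376 to 1602.2, and at 160 mg/kg from 972.6 through 1200.3 to 2042.4. Every one of the 16 treated tumours was above every vehicle tumour. The group means were 788 ± 70.7 (SD, n = 3), 1383 ± 180 (SD, n = 8) and 1277 ± 337 (SD, n = 8). The log2 change was 0.73 (SE 0.15, limma adjusted p = 0.00982). Without vehicle tumour 3 it was 0.66 (limma adjusted p = 0.103), and it was 0.76 without vehicle tumour 1 (limma adjusted p = 0.0480) and 0.78 without vehicle tumour 2 (limma adjusted p = 0.0408).

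The 5 other Gsk3b probe sets had log2 changes between 0.12 and 0.72, all above 0, and none passed the test. The dimmest, 1434439_at, had the largest of these changes, 0.72 (SE 0.28, limma adjusted p = 0.140), and was above all vehicle tumours in 8 of 8 tumours at the lower dose and in 3 of 8 at the higher. For 1437001_at the change was 0.40 (limma adjusted p = 0.150), with 11 of 16 treated tumours above all vehicle tumours. The lowest change, 0.12 with a 95% interval from -0.30 to 0.55, was that of 1439949_at. With the mean of all probe sets in place of the brightest, the Gsk3b change was 0.42 (limma adjusted p = 0.155) and that of Prkar1a 0.17 (limma adjusted p = 0.327), so neither gene was called. Across the 16 treated tumours the 5 other Gsk3b probe sets followed the brightest with Pearson r from 0.710 to 0.898. Of 26 such relations within a gene, 11 had a permutation p adjusted over the 26 under 0.05 by Pearson's r and 8 by Spearman's rho, and the 5 of Gsk3b were among both.

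Gsk3a, the other GSK3 gene, did not pass the test. Its single probe set had signals of 498, 409.6 and 766.6 in the vehicle tumours. At 40 mg/kg it ran from 365 through a median of 402 to 497.3, and at 160 mg/kg from 296.1 through 392 to 517.7. The groups overlapped, and vehicle tumour 3 stood above every other tumour. The log2 change was -0.40 (95% interval -0.73 to -0.07, limma adjusted p = 0.151), and -0.15 without vehicle tumour 3 (limma adjusted p = 0.756).

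The GSK3 pair was also compared within each tumour, as Gsk3b minus Gsk3a on the log2 signal scale. Only the change of this difference between groups is read, since the 2 probe sets differ in brightness for reasons of their own. It was 0.54 ± 0.59 (SD, n = 3) in vehicle tumours and 1.67 ± 0.43 (SD, n = 16) in treated tumours. The treated tumours were 1.13 higher (two-sided exact permutation p = 0.00206 over 969 choices of 3 arrays, adjusted p = 0.0124 over 6 such comparisons), and 15 of 16 lay above all vehicle tumours. The genes were chosen with earlier results of these data known, and the rise of Gsk3b enters this difference. The permutation p-values of this pair are therefore no support separate from that rise. Leaving out 1 array gave differences from 0.80 to 1.38, the lowest without vehicle tumour 3 (exact permutation p = 0.0261, adjusted p = 0.157 over the 6 comparisons). The adjusted p was also over 0.05 without vehicle tumour 1 (1.22, exact permutation p = 0.0131, adjusted p = 0.0784) and with the mean of the probe sets of each gene (0.82, exact permutation p = 0.0134, adjusted p = 0.0805). The doses differed by -0.10 (exact permutation p = 0.654).

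**Figure D2:**
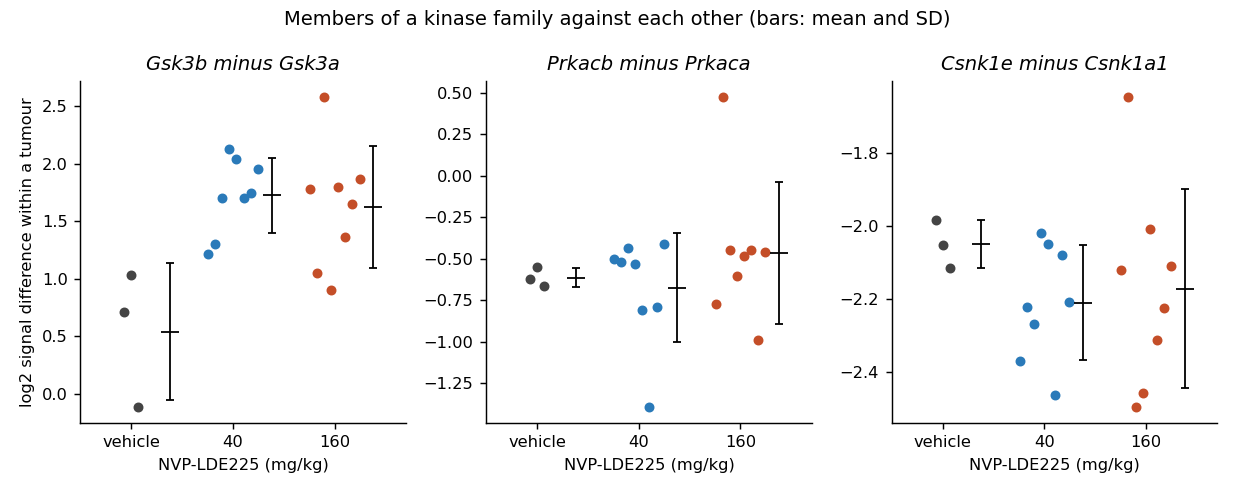
Difference of log2 signal within a tumour (y axis) for the 3 pairs of related kinases, by dose of NVP-LDE225 in mg/kg (x axis); points are tumours, and bars give mean and SD. Gsk3b minus Gsk3a averaged 0.54 in vehicle and 1.67 in treated tumours, with 15 of 16 treated tumours above all vehicle tumours, against 10 of 16 for Prkacb minus Prkaca and 1 of 16 for Csnk1e minus Csnk1a1.

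Protein kinase A is a holoenzyme of regulatory and catalytic subunits, and cAMP frees the catalytic ones. The brightest Prkar1a probe set, 1452032_at, had signals of 1519.7, 1717.4 and 1405.5 in the vehicle tumours. It ran from 1795.4 through a median of 2019 to 2513.3 at 40 mg/kg and from 1860.2 through 2078 to 2328 at 160 mg/kg. As for Gsk3b, 16 of 16 treated tumours were above all vehicle tumours. Means were 1548 ± 158 (SD, n = 3), 2030.2 ± 225 (SD, n = 8) and 2099 ± 174 (SD, n = 8), and the log2 change was 0.41 (SE 0.09, limma adjusted p = 0.0125). Without vehicle tumour 3 it was 0.35 (limma adjusted p = 0.135), without vehicle tumour 1 it was 0.40 (limma adjusted p = 0.0744), and without vehicle tumour 2 it was 0.49 (limma adjusted p = 0.0278).

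A second Prkar1a probe set, 1425550_a_at, also rose, by 0.52 on the log2 scale (SE 0.13, limma adjusted p = 0.0293). Its vehicle signals were 787.3, 901.7 and 660.6, and 15 of 16 treated tumours were above them. It was not called without vehicle tumour 3 (0.40, limma adjusted p = 0.246) or vehicle tumour 1 (0.53, limma adjusted p = 0.107). The remaining probe set, 1447635_at, was dim and, with a mean signal of 28.2, had a change of -0.42 (95% interval -0.96 to 0.12, limma adjusted p = 0.358). Prkar1a varied little among treated tumours: the SD of its log2 signal, 0.13, was at percentile 5.23 of all genes. Csnk1a1 (0.13, percentile 5.21) and Prkacb (0.15, percentile 8.24) varied about as little, beside 0.27 and percentile 42.1 for Gsk3b. These percentiles are over genes of every brightness.

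The catalytic subunits gave mixed readings. Prkaca was not called, with a log2 change of 0.09 (95% interval -0.33 to 0.50, limma adjusted p = 0.827) for the brightest probe set and -0.03 for the other. Its vehicle signals were 906.2, 828.6 and 889.7, and treated tumours ran from 426.2 to 1352.7, on both sides of them. Prkacb by its brightest probe set, 1420611_at, changed by 0.13 (95% interval -0.07 to 0.34, limma adjusted p = 0.447). The dimmer Prkacb probe set 1420610_at rose by 0.75 (SE 0.19, limma adjusted p = 0.0269), from vehicle signals of 67.7, 46.6 and 44.6 to means of 89.3 ± 12.7 at the lower dose and 92.8 ± 24.9 at the higher (SD, n = 8 each), with 14 of 16 treated tumours above all vehicle tumours. It was not called without vehicle tumour 3 (0.64, limma adjusted p = 0.199) or vehicle tumour 2 (0.67, limma adjusted p = 0.118). The remaining Prkacb probe set, 1457197_at, with a mean signal of 26.6, had a change of -0.28 (limma adjusted p = 0.587). The 3 Prkacb probe sets therefore differed in direction. Prkacb minus Prkaca within a tumour was 0.04 higher in treated than in vehicle tumours (exact permutation p = 0.780, adjusted p = 0.780 over the 6 comparisons).

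Casein kinase 1 follows protein kinase A on the Gli sites. Csnk1a1, its alpha form, had vehicle signals of 2450.6, 2439.5 and 2234.6 at its brightest probe set and ran from 2208.4 to 3052.2 in treated tumours, where 14 of 16 were above all vehicle tumours. The log2 change was 0.18 (95% interval 0.01 to 0.36, limma adjusted p = 0.207). The other 4 Csnk1a1 probe sets had changes from -0.97 to 0.17 and none was called; the lowest was that of 1451497_at, with a mean signal of 19.6 and a vehicle tumour 3 signal of 71.6 against 18.6 and 22.8 in the other vehicle tumours. Csnk1e, the epsilon form, changed by 0.04 (95% interval -0.23 to 0.31, limma adjusted p = 0.878), with 3 of 16 treated tumours above and 1 below all vehicle tumours. Csnk1e minus Csnk1a1 differed by -0.14 between treated and vehicle tumours on the log2 scale (exact permutation p = 0.273, adjusted p = 0.670 over the 6 comparisons).

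Of the ligase subunits, Btrc had dim probe sets, with mean signals from 14.9 to 93.7. The brightest had vehicle signals of 85.4, 108.2 and 89, and treated tumours ran from 62.9 to 115.3. Its log2 change was -0.02 (95% interval -0.35 to 0.31, limma adjusted p = 0.956). The other 4 had changes from -0.42 to 0.58, and none was called.

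Cul3, the scaffold of the Spop ligase, had a brightest probe set that was not called, with a change of 0.19 (95% interval -0.03 to 0.42, limma adjusted p = 0.309). Vehicle signals were 995, 1007.8 and 965.7, and 14 of 16 treated tumours were above them. Cul3 1422795_at rose by 0.54 (SE 0.13, limma adjusted p = 0.0257), from 269.3, 357.4 and 283.9 in vehicle tumours to between 376.6 and 698.8 in treated tumours, with 16 of 16 above. It was not called without vehicle tumour 3 (0.50, limma adjusted p = 0.164) or vehicle tumour 1 (0.46, limma adjusted p = 0.155). Cul3 1434717_at changed by 0.46 (limma adjusted p = 0.0627) and the remaining Cul3 probe sets by 0.16 and 0.22, so all 5 were above 0.

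Spop, which binds the Gli substrate, was not called. Its brightest probe set had vehicle signals of 1033, 1112.8 and 946.1. At 40 mg/kg it ran from 1092.2 through a median of 1157 to 1557.3, and at 160 mg/kg from 899.7 through 1101 to 2087.5. The groups overlapped, with a single tumour, 160 mg/kg tumour 2, far above the rest. The log2 change was 0.22 (95% interval -0.13 to 0.58, limma adjusted p = 0.455), and the other Spop probe sets had changes of 0.20 and -0.01.

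**Figure D3:**
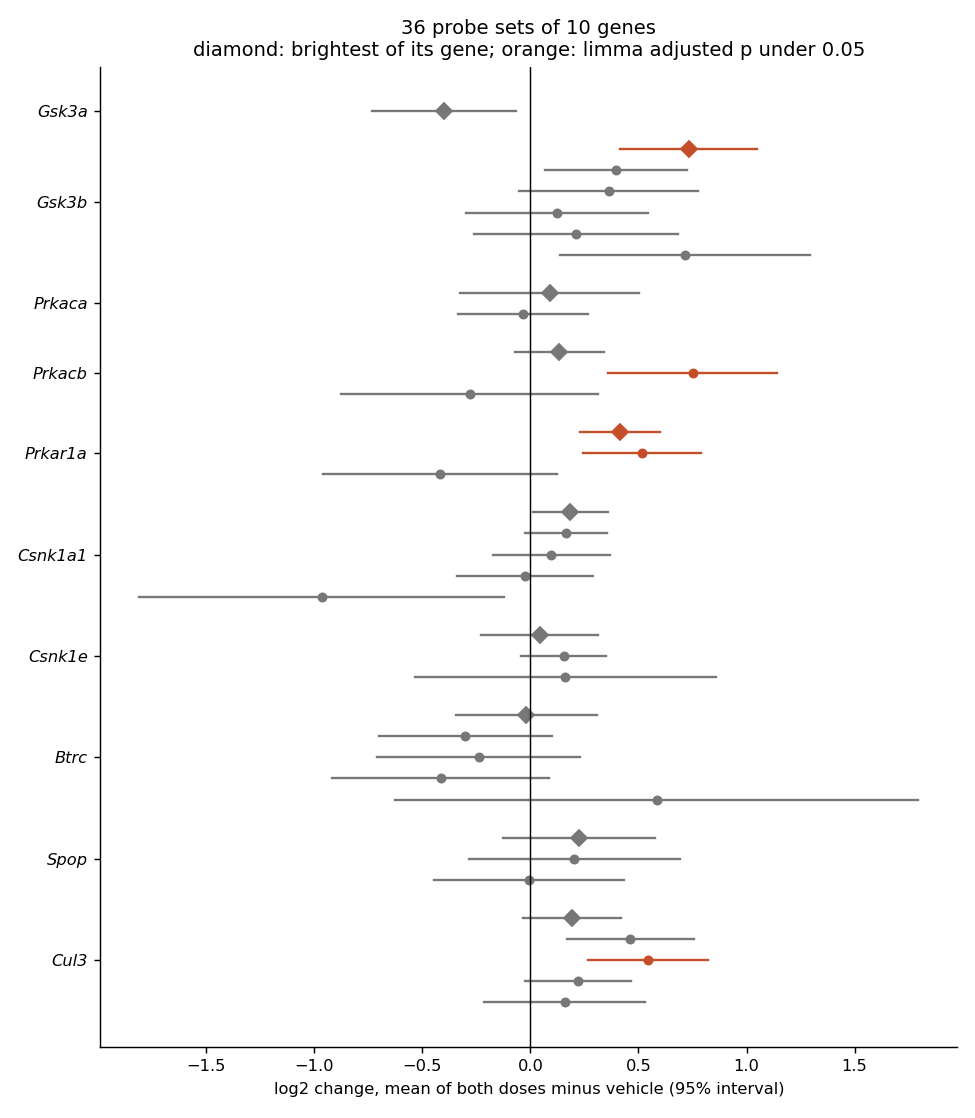
Log2 change with its 95% interval, mean of both doses minus vehicle (x axis), of the 36 probe sets grouped by gene (y axis); diamonds mark the brightest probe set of a gene, and orange marks a limma adjusted p under 0.05. The called probe sets are 2 of Prkar1a and 1 each of Gsk3b, Prkacb and Cul3, all to the right of 0.

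Each dose was then set against the same 3 vehicle arrays, which the dose comparisons share. At 40 mg/kg 2 of 36 probe sets rose (5.56%) and 0 fell, where 1.52% of all probe sets rose and 0.629% fell. These were the brightest probe sets of Gsk3b (0.80, SE 0.16, limma adjusted p = 0.0144) and Prkar1a (0.39, SE 0.10, limma adjusted p = 0.0379), which made 2 of 10 genes where 1.7% of all genes rose. Neither was called at 40 mg/kg once any 1 vehicle array was left out, with limma adjusted p for Gsk3b of 0.0577, 0.0508 and 0.109 and for Prkar1a of 0.143, 0.0558 and 0.221 without vehicle tumours 1, 2 and 3. Prkar1a was also not called in 4 of 16 fits without 1 treated array, those without 40 mg/kg tumours 1, 2, 5 and 6 (limma adjusted p from 0.0505 to 0.0630). At 160 mg/kg 6 of 36 rose (16.7%) and 0 fell, where 2.27% of all probe sets rose and 1.77% fell. Gsk3b changed by 0.66 (SE 0.16, limma adjusted p = 0.0272) and Prkar1a by 0.44 (SE 0.10, limma adjusted p = 0.0143), again 2 of 10 genes, where 2.45% of all genes rose. The others at 160 mg/kg were Prkar1a 1425550_a_at (0.51, limma adjusted p = 0.0459), Prkacb 1420610_at (0.76, limma adjusted p = 0.0369), Cul3 1422795_at (0.62, limma adjusted p = 0.0186) and Cul3 1434717_at (0.55, limma adjusted p = 0.0453). At 160 mg/kg Gsk3b, Prkar1a 1425550_a_at and Cul3 1434717_at were called in 0 of the 3 fits without a vehicle array, with limma adjusted p up to 0.176, 0.290 and 0.239, each without vehicle tumour 3. The brightest Prkar1a probe set and Cul3 1422795_at were called only in the fit without vehicle tumour 2, and Prkacb 1420610_at only in that without vehicle tumour 1. Of the 16 fits without 1 treated array, Prkar1a 1425550_a_at was called in 6, Cul3 1434717_at in 7, Prkacb 1420610_at in 13 and the other 3 in 16. At 40 mg/kg the 4 probe sets that were called at 160 mg/kg alone had changes of 0.53, 0.74, 0.46 and 0.38, with limma adjusted p from 0.0544 to 0.174.

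Between the doses no probe set passed the test: limma called 0 of 36 and 0% of all 31143, with 2 of the 36 and 2122 of all at an unadjusted p under 0.05. For Gsk3b 160 minus 40 mg/kg was -0.14 on the log2 scale (95% interval -0.39 to 0.11, limma adjusted p = 0.860). For Prkar1a the difference was 0.05 (95% interval -0.10 to 0.20, limma adjusted p = 0.922). The smallest limma adjusted p among the 36 was 0.674. An effect called at 160 and not at 40 mg/kg, as for Cul3 and Prkacb, was therefore not shown to differ between the doses. The levels ran in the order vehicle, 160 mg/kg, 40 mg/kg for Gsk3b and vehicle, 40 mg/kg, 160 mg/kg for Prkar1a, and in neither gene did the doses differ beyond the spread.

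The genes that varied most like Gsk3b over the 16 treated tumours were Ppp1r2 (Pearson r 0.922), Snx4 (0.919), Zfp148 (0.909), Tmem39a (0.906) and Senp5 (0.894). All 5 lie on chromosome 16 like Gsk3b, between 48 measured genes before it and 4 after it in RefSeq's order. None of them was called against vehicle, with log2 changes from 0.35 to 0.52. This led to a comparison chosen after seeing these values, in which each member was set against the median of up to 25 measured genes on each side of it, relative to the vehicle mean and to the median of all genes.

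The neighbours of Gsk3b had a median of 0.21 in treated tumours, from -0.12 to 0.75, and vehicle tumours were within 0.01 of 0. Over the 16 treated tumours Pearson's r of Gsk3b with them was 0.904 and Spearman's rho 0.906. These coefficients describe the same tumours in which the most similar genes were found, and Zfp148 and Tmem39a are among the neighbours, so no p is given. Pearson's r was 0.838 without the 2 tumours farthest from the median, 0.968 within 40 mg/kg and 0.878 within 160 mg/kg. The highest pair of values came from 160 mg/kg tumour 3, where Gsk3b was 1.43 and its neighbours 0.75 above vehicle, while the whole of chromosome 16 had a median of 0.08. In 40 mg/kg tumours 4 and 5 and in 160 mg/kg tumour 5 the neighbours were 0.54 to 0.61 above vehicle and the chromosome 0.30 to 0.40. Gsk3b still exceeded its neighbours: the difference was 0.51 higher in treated than in vehicle tumours, with 16 of 16 above all vehicle tumours. It was 0.45 to 0.55 when 1 array was left out. The rise of Gsk3b in all 16 was known before this comparison was chosen, so no p is given here either.

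Prkar1a rose without its neighbours. Genes around it on chromosome 11 stayed between -0.06 and 0.07 in treated tumours. Prkar1a minus neighbours was 0.44 higher in treated than in vehicle tumours, with 16 of 16 above all vehicle tumours. The range was 0.40 to 0.52 with 1 array left out. As for Gsk3b, the rise was known beforehand, so no p is given for this difference. Prkar1a and its neighbours had r 0.646 (permutation p = 0.00609, adjusted p = 0.0305 over 10) and rho 0.641 (permutation p = 0.00909, adjusted p = 0.0455), and r 0.538 without the 2 farthest tumours, within that narrow range of the neighbours.

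In other members single tumours stood out together with their chromosome neighbours. In 160 mg/kg tumour 2 Prkaca was at -1.01 relative to vehicle on the log2 scale and its neighbours on chromosome 8 were at -0.77. The whole of chromosome 8 had a median of -0.60 in that tumour. In the same tumour Csnk1e was 0.79 above vehicle and its neighbours on chromosome 15 were 0.58 above. The whole of chromosome 15 was 0.59 above. Cul3 in 160 mg/kg tumour 5 was 0.72 above vehicle and its neighbours on chromosome 1 were 0.39 above. There the whole chromosome was at -0.06. The r over 16 tumours was 0.803, 0.872 and 0.623 for these 3 genes. It dropped to -0.01, 0.11 and 0.17 without the 2 farthest tumours, so these relations rest on those tumours. Btrc in 160 mg/kg tumour 4 was at -0.04 although its neighbours on chromosome 19 were at -0.50 and the whole chromosome at -0.52. Spop in 160 mg/kg tumour 2 was 1.04 above vehicle while its neighbours on chromosome 11 were at 0.04. DNA copy number was not measured, and its part in these values was not tested.

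**Figure D4:**
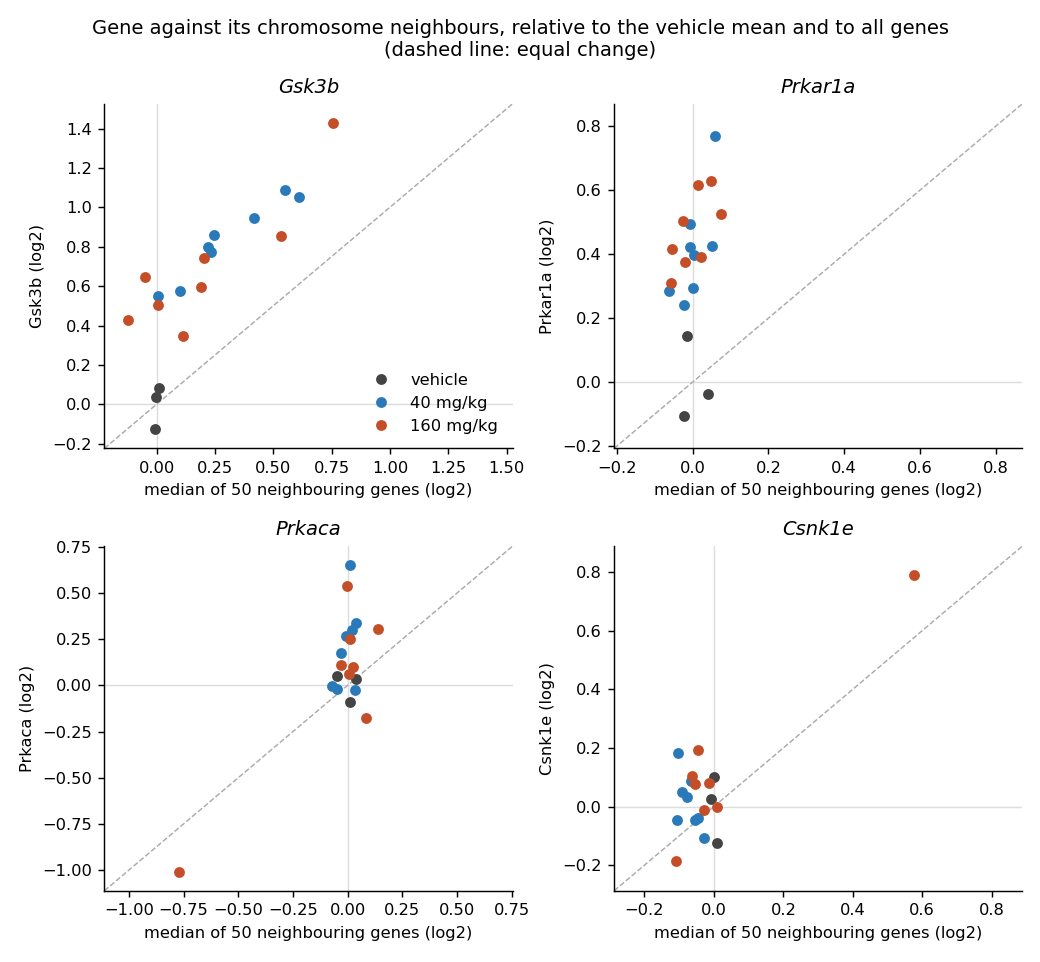
Log2 signal of Gsk3b, Prkar1a, Prkaca and Csnk1e (y axis) against the median of 50 neighbouring measured genes (x axis) in 19 tumours, each relative to the vehicle mean and to all genes; points are tumours coloured by group, and the dashed line marks equal change. Gsk3b lies above the line in all treated tumours and climbs with its neighbours, Prkar1a rises at neighbour values near 0, and Prkaca and Csnk1e each have 1 tumour, 160 mg/kg tumour 2, far out along the line.

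Members were then related to the Gli genes and to each other over the 16 treated tumours. Of 45 pairs of members 0 passed after adjustment by either measure. Of 30 relations with Gli1, Gli2 or Gli3, 1 passed, that of Spop with Gli2. Gli3 was dim, with signals from 6.7 to 26.3 in treated tumours, so its relations with the members could show little. Gli2 signals were 572.8, 630.7 and 645.1 in vehicle tumours, ran from 547.2 to 2501.6 at 40 mg/kg and from 388 to 4325.8 at 160 mg/kg. The treated tumours fell into separate clusters of 8, with Gli2 from 388 to 758 in 2 tumours of the 40 mg/kg group and 6 of the 160 mg/kg group, and from 1348 to 4325.8 in 6 and 2. These clusters were seen in the values and are not groups of the study, so no pooled coefficient is given. The brightest Spop probe set ran from 899.7 to 1135 in the tumours with lower Gli2 and from 1129 to 2087.5 in those with higher Gli2. The other Spop probe sets overlapped between the clusters. Spop 1416525_at ran from 443.5 to 862.9 with lower Gli2 and from 606.3 to 1463.6 with higher Gli2. For 1447827_x_at the ranges were 120.9 to 187.3 and 129.4 to 357.7, with medians of 173.6 and 165.15, so it was not higher in the middle. Within the cluster of lower Gli2 the brightest Spop probe set had Pearson's r 0.12 (exact permutation p = 0.768, adjusted p = 0.768 over 6 relations, which also cover the other Spop probe sets) and Spearman's rho 0.31 (exact permutation p = 0.462, adjusted p = 0.844). Within that of higher Gli2 r was 0.59 (exact permutation p = 0.130, adjusted p = 0.344) and rho 0.21 (exact permutation p = 0.619, adjusted p = 0.844), and r was -0.12 without the 2 tumours farthest from the median. None of the 6 relations within clusters passed, but with 8 tumours in each cluster a relation of moderate size could be missed. The relation of Spop with Gli2 over all treated tumours can therefore not be told apart from the split between the clusters.

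**Figure D5:**
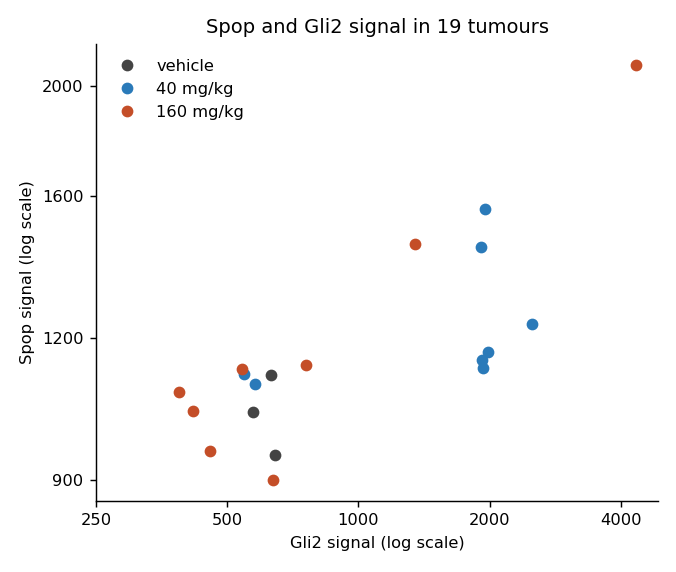
Signal of Spop (y axis, log scale) against signal of Gli2 (x axis, log scale) in the 19 tumours, coloured by group. Treated tumours fall into a cluster with Gli2 of 388 to 758 and one with 1348 to 4325.8, and the tumour with the highest Gli2 signal, 4325.8, also has the highest Spop signal, 2087.5, and it is 160 mg/kg tumour 2.

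The other genes of the pathway were taken from lists and, unless a dose is named, were compared with vehicle over both doses. For these lists and the cell markers below, fits without 1 vehicle array are not given. Over all probe sets, calls fell from 1392 to 243 without vehicle tumour 3, so these calls may also rest on single vehicle arrays. Of 24 measured genes for protein kinase A subunits, inhibitors and cAMP control 2 rose and 0 fell: the regulatory subunit Prkar1b (1.67, SE 0.43, limma adjusted p = 0.0331) and Gnas, the G protein that stimulates cAMP synthesis (0.36, SE 0.07, limma adjusted p = 0.00921). For both genes the 16 treated tumours lay above the vehicle range. At 160 mg/kg the inhibitor Pkig fell (-0.60, SE 0.16, limma adjusted p = 0.0424), where 1.77% of all probe sets fell. Over both doses Pkig changed by -0.50 (limma adjusted p = 0.0610), with 15 of the 16 treated tumours below the vehicle range and 1 above. The list's median change over both doses was 0.16. Of 9 other casein kinase 1, DYRK and related kinases 1 rose, Dyrk2 (0.51, SE 0.11, limma adjusted p = 0.00979), a kinase that phosphorylates Gli2, and their median was 0.15. Of 18 other ligase and neddylation genes 0 rose and 0 fell with limma, 2 had an unadjusted p under 0.05, and the median was -0.05. Fbxw11, the paralogue of Btrc, changed by 0.15 (limma adjusted p = 0.124). Beside these lists, the median of all genes was -0.06, and 2.84% of all genes rose and 2.45% fell.

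Of 11 Hedgehog receptors, Gli factors and binding proteins 0 rose and 1 fell, the coreceptor Gas1 (-1.03, SE 0.25, limma adjusted p = 0.0225), with a list median of -0.59. Sufu, which holds Gli proteins in the cytoplasm, changed by -0.48 (95% interval -0.78 to -0.18, limma adjusted p = 0.0611). Of 8 Hedgehog target genes limma called 0, with 1 at an unadjusted p under 0.05. Their median was -0.56, where that of all genes was -0.06. Of the 16 treated tumours 15 lay below the vehicle range for Ptch1, 14 for Ccnd1 and 12 for Gli1. Above that range lay 1, 1 and 3 in turn. Among 11 cilium transport genes 0 rose and 3 fell, where 2.45% of all genes fell: Tulp3, which carries receptors into the cilium (-0.66, SE 0.13, limma adjusted p = 0.00818), the retrograde motor Dync2h1 (-0.46, SE 0.13, limma adjusted p = 0.0458) and Evc2 (-0.93, SE 0.21, limma adjusted p = 0.0149). For Tulp3 the 16 treated tumours lay below the vehicle range. Of 7 genes of the beta-catenin destruction complex, in which GSK3 also works, limma called 0 over both doses, with 1 at an unadjusted p under 0.05, and 1 at 160 mg/kg, the scaffold Apc (0.69, limma adjusted p = 0.0450).

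Markers of neurons differed along with Gsk3b and Prkar1a. Of 13 measured markers of postmitotic neurons 9 rose and 0 fell, where 2.84% of all genes rose, and their summed signal was 5017.3 to 6235.1 in vehicle and 7262.3 to 15853.9 in treated tumours, above all vehicle tumours in 16 of 16. Of 12 granule neuron precursor markers, which define the labelled tumour type, 5 rose and 0 fell, with sums of 11707.7 to 12833.6 and 13951.7 to 23056.8, also 16 of 16. As for the pathway lists, fits without 1 vehicle array are not given for the marker calls. None of the 8 marker lists had a defining marker at 0 on every array. The sums of the other 6 lists overlapped between treated and vehicle tumours. Endothelial markers summed to 544.6 to 810.1 in vehicle. Of the 16 treated tumours 10 lay below that range and 0 above it, and 1 of 9 markers fell. Astrocyte and radial glia markers (4267.7 to 4746.3 in vehicle) were below in 9 and above in 3, with 2 of 9 risen and 1 fallen. Oligodendrocyte lineage markers (2297 to 2535.8 in vehicle) were above in 10 and below in 2, with 1 of 10 risen. Muscle markers summed to 717.8 to 3669 in vehicle, 147.3 to 21893.6 at 40 mg/kg and 155 to 10154.7 at 160 mg/kg, and limma called 0 of 12, with 1 at an unadjusted p under 0.05. Fibroblast markers summed to 3858.4 to 7756.6 in vehicle, 2563.9 to 6574.5 at 40 mg/kg and 1630.8 to 8086.1 at 160 mg/kg, with 1 of 10 fallen and a median change of -0.46. Macrophage and microglia markers (1039.2 to 1690.1 in vehicle) were above in 8 and below in 4, and limma called 0 of 11, with 0 at an unadjusted p under 0.05. Among treated tumours the neuron sum and the members gave 10 relations, of which 0 passed after adjustment, with r -0.24 for Gsk3b (permutation p = 0.380, adjusted p = 0.641) and 0.43 for Prkar1a (permutation p = 0.0977, adjusted p = 0.488). The part of cell mix in the differences from vehicle was not tested.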

How the data were processed

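The authors deposited 1 signal intensity per probe set and array, on a linear scale, made with MAS5 per the submitters' processing notes; its version and scaling target are not given in the sources used here. Each array had a mean of 150 once the top and bottom 2% were removed. The series text names the 430A 2.0 array, whereas the 45101 probe sets and their gene names match the platform table of the full 430 2.0 array. After 64 control probe sets were left out, 34945 had 1 symbol, 932 had several and 9160 had none; only those with 1 symbol named a gene, and all 10 member symbols were the same in RefSeq's gene table.

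Values were analysed as log2(signal + 2.5), where the pseudocount is the 10th percentile of all signals, with no further normalization; such fold changes understate the change of dim genes. A probe set was tested if it passed the 40th percentile of the array on 3 or more arrays. limma fitted 3 group means to all 19 arrays (lmFit, eBayes with trend, 16 residual degrees of freedom), with two-sided p-values adjusted by the Benjamini-Hochberg method over 31143 probe sets. Relations across tumours used 100000 permutations, exact within doses and clusters. Chromosome order came from RefSeq on GRCm38.p6, and neighbours had a mean log2 value above 6.

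The genes and lists were chosen with earlier results of these data known. All member probe sets are named; of each other list, every called gene and the 2 with the smallest p could be named, besides Gli1, Gli2, Gli3, Sufu, Smo and Ptch1, and the 5 genes most like the member with the smallest p. In simulated data with 100 changes each of 1 and 2 on the log2 scale, the fit against vehicle called 56% and 85%, with 4.08% of calls false.

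Pairwise array correlations ran from 0.878 to 0.968 and 0 pairs were identical. Alternatives were quantile normalization, array medians subtracted, pseudocounts of 1 and 16, no filter and a filter at the 60th percentile, no variance trend, array weights, only the compared groups, a replicate block, the mean of the probe sets of a gene, and leaving out each array. Leaving out vehicle 3 and 160 mg/kg 2 together, the comparison with neighbours, and the relations with neuron markers, neighbours and Gli2 clusters were added after seeing the data. No scan date or batch was used here. R 4.3.3, limma 3.58.1, Python 3.11.15, numpy 2.4.6, scipy 1.17.1, pandas 2.3.3 and matplotlib 3.10.9 were used.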

Additional observations from a re-analysis of the deposited data

Results flagged for a closer look

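Single tumours stood apart within their dose group of 8 in 19 of 78 groups of values tested (24.4%), by the gap to the nearest tumour relative to the range. Chance gives about 1 in 20 for independent, normally distributed values; these groups include several probe sets of 1 gene on a linear scale, and the rate for such values was not measured. In 160 mg/kg tumour 3, Gsk3b was highest at all 6 probe sets and stood apart at 4, with signals of 2042.4, 434.7, 381.4 and 408.5. In 160 mg/kg tumour 5, Cul3 was highest at all 5 probe sets and stood apart at 4, with 1592.6, 893.6, 698.8 and 555.2. In 160 mg/kg tumour 2, Csnk1e stood apart at 2 of 3 probe sets, with 974.9 and 114.7. Spop was highest there at all 3 probe sets and stood apart at 2, with 2087.5 and 357.7, and the log2 difference Prkacb minus Prkaca was the highest, 0.48. In 40 mg/kg tumour 6 that difference was the lowest, -1.40, and Prkaca 1450519_a_at was the highest, 332.6. Prkar1a 1452032_at was highest in 40 mg/kg tumour 5 (2513.3), as was Spop 1416525_at (1067.1). Csnk1a1 1428537_at was highest in tumour 3 of the lower dose (1866.1) and tumour 4 of the higher (2246).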

How the results depend on the processing

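With 1 array left out, members called ranged from 0 to 2 against vehicle over both doses, at 40 mg/kg and at 160 mg/kg. Member probe sets called ranged from 0 to 6, 0 to 4 and 0 to 6. All were 0 without vehicle 3, where 0.78%, 0.385% and 0.697% of all probe sets were called. Members and member probe sets called, for both doses, 40 and 160 mg/kg in turn, were 0 and 0, 0 and 0, and 0 and 0 without vehicle 3 and 160 mg/kg 2. Of all probe sets 0.88%, 0.543% and 0.706% were called in those fits. With the mean of the probe sets of a gene, members called were 0, 0 and 0. The share of all genes called was not counted in those fits, so a general loss of calls cannot be told from one in the members. With array weights, 4 members and 13 of 36 probe sets were called over both doses, where 28.6% of all probe sets were called. At 40 mg/kg 9 of 36 were called with array weights, where 23.9% of all were called. With only the compared groups, 6 probe sets were called at 40 mg/kg, and 1 member and 1 probe set at 160 mg/kg. Of all probe sets 4.99% and 2.02% were called in those fits. Without a filter, 1 member and 1 probe set were called at 40 mg/kg and 3 probe sets at 160 mg/kg. Of all probe sets 1.22% and 2.28% were called there. With the 60th percentile filter 4 probe sets were called at 40 mg/kg, beside 3.66% of all. Without a variance trend 1 member and 1 probe set were called at 40 mg/kg, beside 1.66% of all. With array medians subtracted 1 member was called at that dose, beside 2.03% of all probe sets. Between doses 0 members were called under every alternative. The cause of these shifts was not tested.

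Replicate numbers did not pair the arrays: deviations of 14 same-numbered pairs had r from -0.13 to 0.09, with 0 over 0.1. With the number as a replicate block, 1 member and 2 probe sets were called over both doses, 0 and 1 at 40 mg/kg, and 1 and 3 at 160 mg/kg. Of all probe sets 2.63%, 1.04% and 2.7% were called in turn. Prkaca was then at -0.051 and Btrc at 0.012.

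Changes near 0 that were never called turned sign. Btrc was at 0.018 with quantile normalization, 0.0034 with array medians subtracted and 0.076 with array weights. Csnk1e was at -0.065 with array weights and -0.081 without vehicle 3 and 160 mg/kg 2. Csnk1a1 was at -0.11 with the mean of its probe sets. Leaving out 1 array moved Btrc between -0.085 and 0.082 and Csnk1e between -0.033 and 0.0997. Csnk1e minus Csnk1a1 was 0.23 for treated against vehicle and -0.11 between doses with the mean of the probe sets, and -0.037 between doses without vehicle 3 and 160 mg/kg 2, where Prkacb minus Prkaca was -0.0515 against vehicle. With 1 array left out, Prkacb minus Prkaca against vehicle ran from -0.025 to 0.0996, and between doses Gsk3b minus Gsk3a ran from -0.24 to 0.0016 and Csnk1e minus Csnk1a1 from -0.037 to 0.085. Gsk3b minus Gsk3a against vehicle stayed between 0.80 and 1.38 in the 24 alternatives run, with an unadjusted exact permutation p of at most 0.0261; adjusted over the 6 comparisons, 20 were under 0.05 and 4 were not, with adjusted p up to 0.157: without vehicle 1, without vehicle 3, without vehicle 3 and 160 mg/kg 2, and with the mean of the probe sets. Dim probe sets such as those of Btrc limit what small changes can be seen.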
